A study of Caenorhabditis elegans with 2 samples.

Results

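The X chromosome of Caenorhabditis elegans held 1385 of the 6708 candidate binding sites of the transcription factor EOR-1 in the list called on the pooled reads of 2 replicates. The members are all pooled peaks on X of the ce11 genome, taken without regard to their strength, and they were ranked within X by the signal value that the authors' peak caller gave each peak. Binding was measured by chromatin immunoprecipitation and sequencing (ChIP-seq) in whole L3 larvae with both sexes pooled, in a single group of 2 biological replicates with no other genotype or treatment. Every library came from strain OP81, genotype unc-119(ed3) III; wgIs81, in which an integrated transgene supplies GFP-tagged EOR-1 while the genotype lists no change to the animal's own eor-1 gene, and the signal is an average over all cells of the larva. The age of the larvae is given only by their stage, and the antibody is labelled with the target eor-1. Replicate 1 had 550 X peaks among 2488 and replicate 2 had 562 among 2610. The files used here hold peaks and no read counts, so the depth of the libraries is unknown. A pooled entry is a candidate and not a called site, since the lists keep background entries for the later step that filters by the irreproducible discovery rate (IDR), a measure of how well peak ranks repeat between replicates. Each share has a 95% interval (exact, Clopper-Pearson), which covers counting error alone.

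EOR-1 belongs to the BTB and zinc finger class of transcription factors and is the worm relative of human PLZF. It works with EOR-2 downstream of Ras and Wnt signals in the larva, among others in the vulva, the excretory system and neurons. The X chromosome on which its sites are described here is unusual: hermaphrodites carry a pair of X chromosomes and males a single one, and in hermaphrodites a condensin-like dosage compensation complex binds both X chromosomes and lowers their transcription. The complex enters at recruitment sites that share a GC-rich sequence motif and spreads from there, mostly to promoters. The worm X is also poor in genes used in the germ line and carries its genes farther apart than the autosomes do.

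The bases under a few X summits show the sequences that the results below turn on. All are the plus strand of the WBcel235 assembly (ce11) from RefSeq, with capitals marking exact matches, on either strand, to the motifs searched. The first motif is AGACGCAG (CTGCGTCT on the opposite strand), an 8-base sequence that led an earlier comparison of strong with weak peaks of these data. The second is GAGAGA, a short GA repeat that reads TCTCTC on the opposite strand. The third is GCGCAGGG (CCCTGCGC), the core of the known motif at the recruitment sites of the dosage compensation complex. The pair of 8-base motifs share the letters CGCAG but differ in the base before them, so no stretch can match both in that alignment. A match is a description of the bases and does not show which protein was bound.

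The strongest pair of X peaks, upstream of ftt-2, has none of the 3 motifs in the bases printed around either summit, while the summit upstream of eef-1A.2 has the GA repeat (chrX:11605824-11605924, chrX:11606052-11606152 and chrX:7823237-7823337).
ftt-2, X rank 1: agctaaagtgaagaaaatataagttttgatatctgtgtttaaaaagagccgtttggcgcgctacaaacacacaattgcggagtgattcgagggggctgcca
ftt-2, X rank 2: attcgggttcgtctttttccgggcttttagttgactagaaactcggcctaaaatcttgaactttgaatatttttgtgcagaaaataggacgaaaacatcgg
eef-1A.2, X rank 7: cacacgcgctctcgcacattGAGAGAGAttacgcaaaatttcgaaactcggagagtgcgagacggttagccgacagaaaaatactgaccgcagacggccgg

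The 3 strongest X peaks with AGACGCAG, shown for 51 bases around the match, lie downstream of C30E1.4 (chrX:16929697-16929747), upstream of sma-9 (chrX:10766159-10766209) and upstream of epn-1 (chrX:14819000-14819050).
near C30E1.4, X rank 3: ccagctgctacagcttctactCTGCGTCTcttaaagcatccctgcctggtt
near sma-9, X rank 10: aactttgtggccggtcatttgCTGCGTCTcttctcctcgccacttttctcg
epn-1, X rank 18: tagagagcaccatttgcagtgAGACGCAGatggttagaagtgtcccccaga

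The 7 peaks with GCGCAGGG among the 100 strongest on X are shown in the same way, because this motif set X apart from the autosomes. They are at chrX:6296527-6296577, chrX:8811084-8811134, chrX:11094104-11094154, chrX:4209245-4209295, chrX:5429569-5429619, chrX:806729-806779 and chrX:2997102-2997152, in the order printed.
mom-1 intron, X rank 8: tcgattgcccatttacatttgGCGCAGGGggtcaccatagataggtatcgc
R04E5.9, X rank 9: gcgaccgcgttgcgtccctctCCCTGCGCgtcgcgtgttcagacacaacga
near W02H3.3, X rank 13: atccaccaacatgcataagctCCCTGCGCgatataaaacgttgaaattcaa
near F20B6.9, X rank 21: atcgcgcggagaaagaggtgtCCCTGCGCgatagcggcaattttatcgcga
pks-1 coding exon, X rank 33: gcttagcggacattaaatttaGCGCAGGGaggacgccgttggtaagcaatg
near gtr-1, X rank 67: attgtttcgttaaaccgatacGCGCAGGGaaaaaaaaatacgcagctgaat
Y41G9A.17 intron, X rank 73: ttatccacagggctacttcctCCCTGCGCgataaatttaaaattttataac

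The X chromosome carried 20.6% of the pooled peaks on 17.7% of the genome, which came to 78.2 peaks per Mb on X and 64.5 per Mb on the autosomes. It was the densest chromosome in peaks although its 154 protein-coding genes per Mb were fewer than the 209 per Mb of the autosomes, so that X had 0.507 peaks per protein-coding gene and the autosomes 0.309. Chromosomes III and I came close to X in density, at 76.2 and 73 peaks per Mb, while V had 54.2. Per protein-coding gene III and I had 0.398 and 0.382 peaks. Its share was 22.1% in the list of replicate 1 and 21.5% in that of replicate 2. A peak was given to the protein-coding gene with the nearest transcript start, if that start was no more than 1000 bp from the summit. By that rule 542 of 2731 X genes (19.8%) had a peak, against 2436 of 17242 autosomal genes (14.1%). Among single autosomes this share ran from 10.8% on V to 17% on I and 18.7% on III. Along X the peaks were spread over the whole chromosome, from 0.305 to 0.692 per protein-coding gene in windows of 1 Mb.

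X peaks were neither more nor less frequent among the strongest pooled peaks by a detectable amount. Their signal values ran from 51.8 down to 2.05 with a median of 3.2, beside a median of 3.1 on the autosomes. The medians were not tested. The value at X rank 10 was 17.5, at rank 50 it was 11.1, at rank 100 it was 8.48 and at rank 300 it was 5.08, so the top of the list falls off steeply and most entries are weak. Of the X peaks, 111 (8.01%, 95% interval 6.64 to 9.57%) were among the 500 strongest pooled peaks, against 389 of 5323 autosomal peaks (7.31%). The odds ratio was 1.11 (0.879 to 1.38, two-sided Fisher's exact test, adjusted p = 0.46 after Benjamini-Hochberg adjustment over 13 comparisons of X with autosomal peaks). Peaks of a list are not biological replicates, so this p-value and the others below describe the lists and not the variation between cultures.

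The IDR step of the authors kept 33 peaks, called the thresholded peaks here, and 8 of them were on X. These were the 8 strongest X peaks, 0.578% of the X entries, where 0.492% of all pooled peaks were kept. The weakest X peak kept, in mom-1, had a signal of 19.3, and the strongest not kept, at R04E5.9, had 18.2.

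The ftt-2 locus led the chromosome. ftt-2 encodes a 14-3-3 protein, a phosphopeptide-binding adaptor that holds client proteins such as the FOXO factor DAF-16 in the cytoplasm. Its strongest peak (chrX:11605672-11606075, summit 455 bp upstream of the start) had a signal of 51.8 in the pooled list and was the first of all peaks in replicate 1 with 42 there, but replicate 2 had no summit within 200 bp. The second (chrX:11605900-11606303, 683 bp upstream) had a pooled signal of 44.1, ranked 4 in replicate 1 with 24.5 and ranked 4 in replicate 2 with 19. The next, at X rank 36, 944 bp upstream, had a pooled signal of 12.1 and was found in replicate 2 alone, at rank 18 with 11.5. Both replicates therefore placed a very strong peak upstream of ftt-2, and they differed in which summits of the group they reported. A signal value is compared within a list only, because no source used here gives its normalization.

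The third strongest X peak lay far from any protein-coding start. Its summit was 5762 bp downstream of the nearest start, that of C30E1.4 (chrX:16929496-16929899), with a pooled signal of 24.9, rank 26 and signal 12.9 in replicate 1 and rank 5 and signal 18.6 in replicate 2. The fourth was 283 bp upstream of bet-2, a gene for a bromodomain protein of the BET family that reads acetylated histones (chrX:10568788-10569191). It had a signal of 24.7 in the pooled list, rank 24 and 13.4 in replicate 1 and rank 33 and 10.1 in replicate 2. Both peaks were thus among the 33 highest entries of each replicate.

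The fifth peak was in an intron of abts-4, which belongs to a family of anion and bicarbonate transporters (chrX:6750143-6750546, pooled signal 24.5). Replicate 1 had it at rank 104 with 8.12, and replicate 2 had no summit within 200 bp. The sixth lay 419 bp upstream of puf-9, which encodes an RNA-binding protein of the Pumilio family (chrX:5840971-5841374, pooled signal 24.4), at rank 124 with 7.78 in replicate 1 and rank 17 with 11.6 in replicate 2. The abts-4 and puf-9 peaks had nearly the same pooled signal and very different support in replicate 2.

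The seventh lay 367 bp upstream of eef-1A.2, a gene for translation elongation factor 1A, which brings aminoacyl-tRNA to the ribosome (chrX:7823085-7823488, pooled signal 20.2). It ranked 89 in replicate 1 with 8.62 and 13 in replicate 2 with 14. The eighth was in an intron of mom-1, which encodes the Porcupine-like acyltransferase that Wnt ligands need for secretion (chrX:6296313-6296716, pooled signal 19.3), at rank 33 with 12.3 in replicate 1 and rank 197 with 5.89 in replicate 2. Of the 8 thresholded X peaks, 6 were in both replicate lists, 6 were outside protein-coding genes (called intergenic here) and 2 were intronic.

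**Figure D1:**
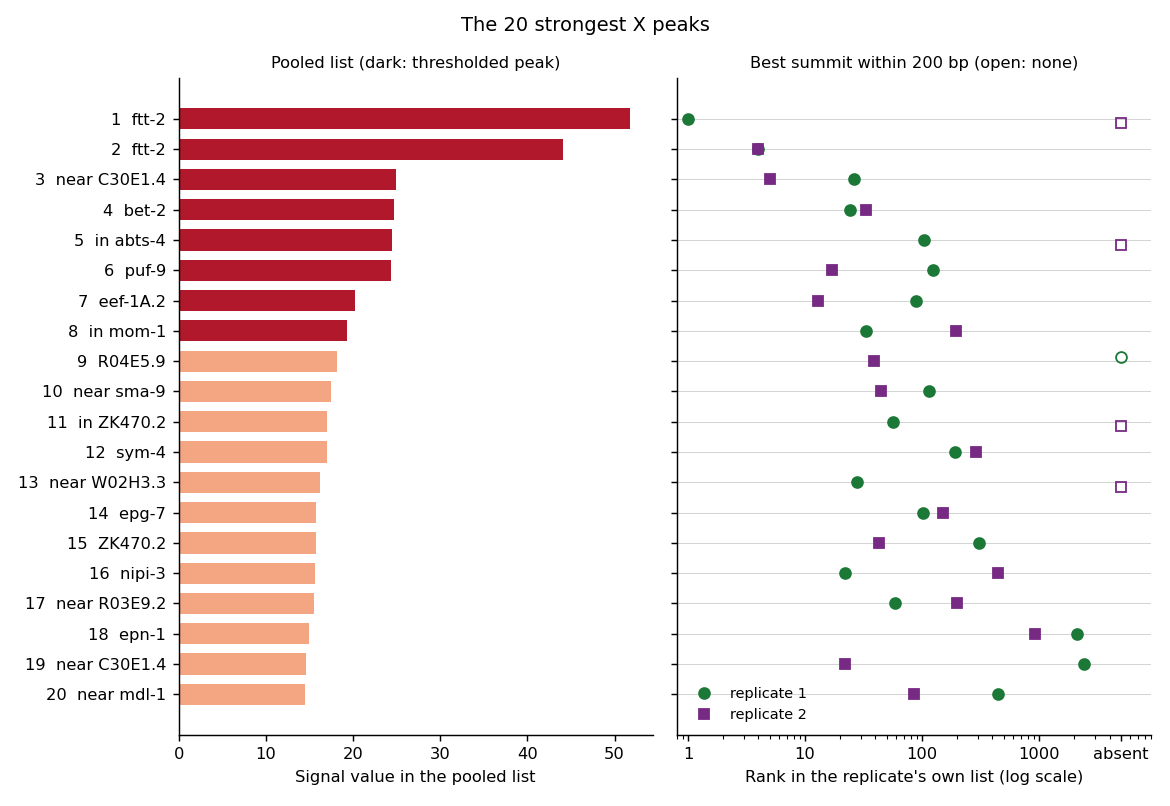
The left panel gives the deposited signal value of the 20 strongest X peaks in the pooled list, labelled by X rank and by the assigned gene, the host gene (in) or the nearest gene (near), with the 8 thresholded peaks in dark red. The right panel gives the rank of the best summit within 200 bp in each replicate's own list on a log axis, with open symbols where there was none; 15 of the 20 peaks have a filled symbol for both replicates, and the ftt-2 pair stands apart in signal at 51.8 and 44.1.

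Below the thresholded peaks, the 20 strongest went on with a mixture of regulatory, housekeeping and little-studied genes. R04E5.9 was the only one of the 20 with its summit in a 5′ UTR, 77 bp past the start, with a pooled signal of 18.2 and rank 39 in replicate 2 but no summit in replicate 1. The tenth lay 3038 bp upstream of sma-9, the worm homologue of the zinc finger protein Schnurri, which acts in body size signalling of the BMP type (pooled signal 17.5, rank 114 in replicate 1 and 45 in replicate 2). A pair of summits fell in introns of ZK470.2, with pooled signals of 17 and 15.7. The first of them was at rank 57 in replicate 1 only, and the second at ranks 307 and 43 in replicates 1 and 2.

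Short promoter distances were seen at sym-4 (226 bp upstream, signal 17, ranks 193 and 290 in replicates 1 and 2) and at epg-7, a scaffold of autophagy (103 bp upstream, pooled signal 15.7, with signals of 8.21 and 6.37 in the lists of replicates 1 and 2). nipi-3 encodes a Tribbles-like pseudokinase of the response to fungal infection, and its peak (274 bp upstream, signal 15.6) ranked 22 in replicate 1 and 448 in replicate 2. The peak of epn-1, which encodes the endocytic adaptor epsin (493 bp upstream, signal 14.9), was the weakest of these in the replicates, at ranks 2092 and 923. Over the 20 strongest, 11 had an assigned gene and 9 had none. By gene part, 15 were intergenic, 4 intronic, 1 in a 5′ UTR and 0 in a coding exon, where 3 counts would be 15%. In both replicate lists there were 15, in replicate 1 only 4 and in replicate 2 only 1.

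Across all X peaks, 112 of 1385 (8.09%, 6.70 to 9.65%) had a summit within 200 bp in both replicate lists, beside 7.8% of all pooled peaks. A further 351 were in replicate 1 only, 292 in replicate 2 only and 630 (45.5%) in neither. Pooled peaks come from the same reads as the replicates' peaks, so this support is not independent of it. The share on autosomes was 7.72%, with an odds ratio of 1.05 (0.838 to 1.31, Fisher's exact test, adjusted p = 0.653), so no difference between X and autosomes was detectable. Taken from the replicates' own lists, 103 of the 550 X peaks of replicate 1 (18.7%, 15.6 to 22.2%) had a counterpart in replicate 2, and 104 of the 562 of replicate 2 (18.5%, 15.4 to 22.0%) had one in replicate 1.

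Support followed rank closely within X. Of the 100 strongest X peaks, 55 were in both replicates, against 21.5% of the next 200, 2.5% of the next 400 and 0.584% of the remaining 685. Rank also went with position: 76% of the 100 strongest were intergenic and 2% were in coding exons, while among the peaks of rank 701 and below 46.4% were intergenic and 16.4% were in coding exons. Promoter peaks, with a protein-coding start within 500 bp, were 45% of the first 100 and 27.2% of the last class. These shares are descriptions of one ranked list with no test.

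X peaks lay farther from transcript starts than autosomal peaks. Promoter peaks made up 31.7% (29.3 to 34.2%) of the X peaks and 40.2% (38.8 to 41.5%) of the autosomal ones, an odds ratio of 0.691 (0.608 to 0.785, Fisher's exact test, adjusted p = 2.77e-08). Distal peaks, with no start within 2000 bp, made up 32.2% on X (29.7 to 34.7%) and 24.2% on autosomes (23.1 to 25.4%), an odds ratio of 1.49 (1.30 to 1.70, exact test, adjusted p = 1.88e-08). The bases themselves differ in the same way: 18.8% of X and 24% of the autosomes lie within 500 bp of a start, and 40.7% and 33.8% lie over 2000 bp away. Whether the gap in peaks exceeds that in bases was not tested. The promoter odds ratio was 0.76 in the 1000 strongest pooled peaks and 0.673 in the peaks of both replicates, and neither passed the threshold. The median distance to the nearest start was 1078 bp for X peaks and 795 bp for autosomal peaks, and the farthest X summit lay 16887 bp from any start.

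Among promoter peaks, 318 of 439 on X (72.4%, 68.0 to 76.6%) had their summit upstream of the start, with a median signed distance of -137 bp over all promoter peaks. On autosomes 67.7% were upstream with a median of -97 bp. Annotated 5′ ends of worm genes are often trans-splice sites rather than sites of initiation, so these distances are to annotated ends.

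**Figure D2:**
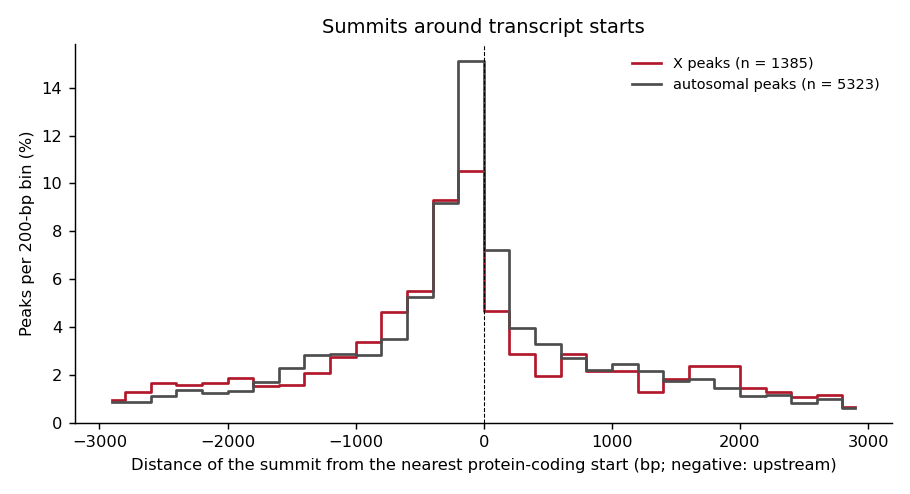
The share of peaks in bins of 200 bp (vertical axis, %) is plotted against the signed distance of the summit from the nearest protein-coding transcript start (horizontal axis, bp, negative values upstream), for the 1385 X peaks and the 5323 autosomal peaks. Both curves peak just upstream of the start, and the X curve is lower within 200 bp on either side and higher beyond 2000 bp upstream.

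By gene part, 760 X summits were intergenic (54.9%, 52.2 to 57.5%), 393 intronic (28.4%), 165 in coding exons (11.9%), 36 in 5′ UTRs (2.6%) and 31 in 3′ UTRs (2.24%). The intergenic share was higher than the 48.3% on autosomes, with an odds ratio of 1.30 (1.15 to 1.47, Fisher's exact test, adjusted p = 3.00e-05). It did not hold among the peaks found in both replicate lists, where the odds ratio was 0.984, nor past the threshold in the list of replicate 2 alone, where it was 1.22 (exact test, adjusted p = 0.0672). The coding exon share was lower than the 15.9% on autosomes (odds ratio 0.714, 0.593 to 0.855, exact test, adjusted p = 0.000323), and lower in each replicate's own list, with odds ratios of 0.394 and 0.635. In the 1000 strongest pooled peaks and in the peaks of both replicates it was 0.802 and 0.601 and did not pass. Among single autosomes the coding exon share ran from 12.8% on IV and 13.9% on I to 19.2% on V, so some came close to X. The intron share differed from the autosomal 29.4% by less than the test could show (odds ratio 0.951, 0.832 to 1.09, exact test, adjusted p = 0.504).

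**Figure D3:**
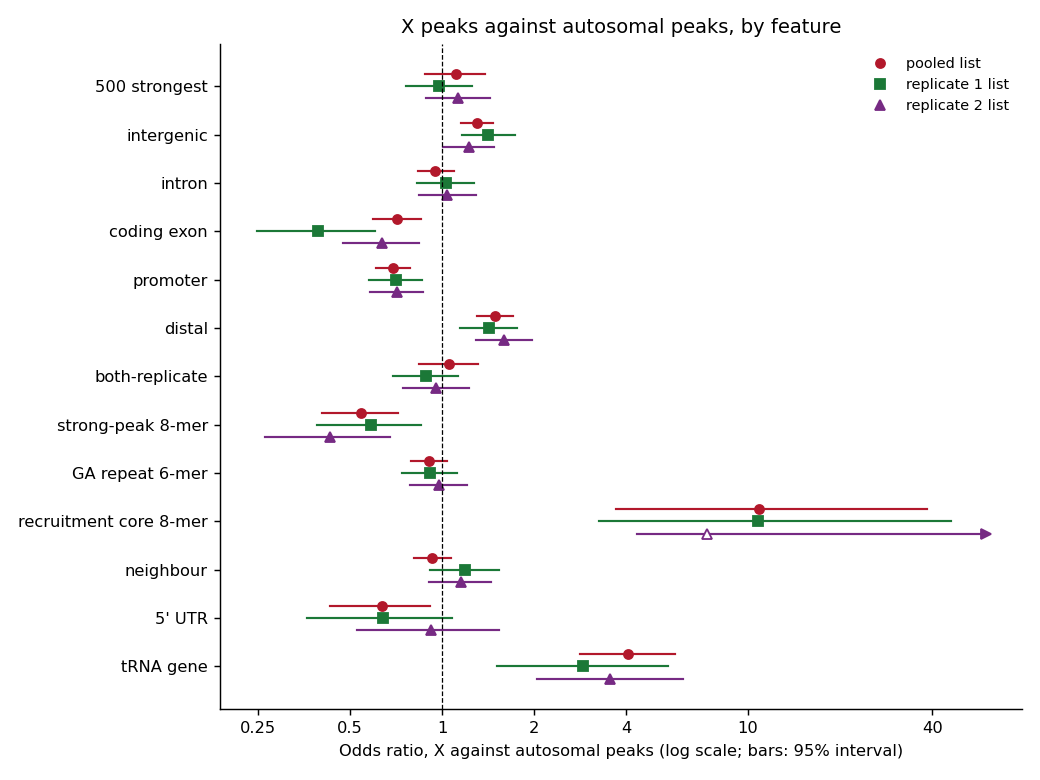
Odds ratios of each feature in X peaks against autosomal peaks (log axis, bars are 95% intervals) are drawn for the pooled list and for each replicate's own list. The recruitment core 8-mer (GCGCAGGG) lies far to the right. Its open symbol in replicate 2 assumes 3 autosomal counts, because no autosomal peak there had a match. Promoter, coding exon and strong-peak 8-mer (AGACGCAG) lie left of 1 and distal peaks right of 1 in all 3 lists.

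GCGCAGGG was the sequence in which X and autosomal peaks differed most. It was found within 100 bp of the summit in 14 X peaks (1.01%, 0.554 to 1.69%) and 5 autosomal peaks (0.0939%, 0.0305 to 0.219%), an odds ratio of 10.9 (3.69 to 38.6, Fisher's exact test, adjusted p = 3.18e-06). Of all windows of 201 bp, 0.0851% on X and 0.0553% on autosomes held it, so the share in peaks was 11.9 times that in windows on X and 1.7 times that in windows on autosomes. In the 1000 strongest pooled peaks the odds ratio was 24.9, with 7 X peaks and 1 autosomal peak, so its interval was very wide (3.17 to 1128). In the list of replicate 1 it was 10.8, with 12 X and 4 autosomal peaks. In that of replicate 2, 6 X peaks and 0 of 2048 autosomal peaks (up to 0.146%) had the motif, which puts the odds ratio at a lower bound of 7.35 when 3 autosomal counts are assumed.

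The GCGCAGGG peaks were spread unevenly over the X ranking. Of the 14, 7 were among the 100 strongest X peaks and the other 7 ranked between 528 and 1233. Among the 500 strongest pooled peaks they were 7 of 111 on X (6.31%) and 0 of 389 on autosomes. The exact interval there reached 0.944%, and 3 counts would be 0.771%. In both replicate lists there were 5 of the 14, in replicate 1 there were 10 and in replicate 2 there were 7. The match lay within 50 bp of the summit in 10. Further, 8 of the 14 were distal, 8 intergenic, 4 intronic, 1 in a coding exon and 1 in a 5′ UTR. Over all X peaks, 32.2% were distal, 54.9% intergenic, 28.4% intronic, 11.9% in coding exons and 2.6% in 5′ UTRs. The intergenic and intronic counts were thus near the shares of all X peaks. In both replicate lists were 8.09% of all X peaks, in replicate 1 33.4% and in replicate 2 29.2%. None of these differences was tested.

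The strongest GCGCAGGG peak was the mom-1 intron peak described above, with a pair of matches, the nearer one starting 33 bp from the summit. Next came R04E5.9, with the match starting 40 bp from the summit, and then an intergenic peak whose nearest start was that of W02H3.3, 4022 bp away (signal 16.2, rank 28 in replicate 1, no summit in replicate 2). A peak 1812 bp upstream of F20B6.9 (signal 14.2) ranked 143 in replicate 1 and 120 in replicate 2. One in a coding exon of pks-1, a giant polyketide synthase gene, had a signal of 12.3 and ranks 154 and 333 in replicates 1 and 2, and it was 15206 bp from the nearest start. The peaks near gtr-1 (signal 9.77, ranks 848 and 357) and in an intron of Y41G9A.17 (signal 9.52, ranks 330 and 1007) were in both replicates too. These genes only locate the peaks, and were named after their values were seen.

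AGACGCAG was rarer in X peaks than in autosomal ones. It was found in 61 X peaks (4.40%, 3.39 to 5.62%) and 417 autosomal peaks (7.83%, 7.13 to 8.59%), an odds ratio of 0.542 (0.405 to 0.716, Fisher's exact test, adjusted p = 1.14e-05). It is also rarer on X as a whole, in 0.563% of the 201 bp windows against 1.16% on autosomes, and the share in peaks was 7.83 times that in windows on X and 6.73 times that in windows on autosomes. The odds ratio was 0.584 in the list of replicate 1 and 0.43 in that of replicate 2. It was 0.618 in the 1000 strongest pooled peaks and 0.679 in the peaks of both replicates, where it did not pass. Among single autosomes the share of peaks with AGACGCAG ran from 5.29% on V, inside the X interval, to 9.14% on IV. On X the share went from 15% of the 100 strongest peaks to 8.5%, 3.5% and 2.19% in the classes below. This fall with rank is no independent result, because the 8-mer was first picked for being more frequent in strong peaks of these data.

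The X peaks with AGACGCAG were mostly outside genes: 48 of the 61 were intergenic, 10 intronic and 1 in a coding exon. In both replicate lists there were 16, and in neither 18. Over all X peaks, 54.9% were intergenic, 28.4% intronic and 11.9% in coding exons, with 8.09% in both lists and 45.5% in neither. Of the 61, 15 were among the 100 strongest on X, of which 76% were intergenic and 55% in both lists. Whether these peaks differ from others of like rank was not tested. Besides the peaks near C30E1.4, sma-9 and epn-1, the 100 strongest held matches at aak-2, the catalytic subunit of AMP-activated kinase (signal 10.5, ranks 254 and 265 in replicates 1 and 2), at hda-4, a class II histone deacetylase (2532 bp upstream, signal 11.9, ranks 91 and 1074), and at cebp-1, a bZIP factor of axon regeneration (831 bp upstream, signal 9.90, rank 541 in replicate 1 only). A match starting 3 bp from the summit upstream of dpy-22, the Mediator subunit MED12 (signal 9.71), was in a peak that neither replicate listed. These 4 were named after their values were seen, out of 15 peaks with a match among the 100 strongest on X. Others are not described, such as F17E5.2 (signal 12.7, rank 38 in replicate 2 only), which was stronger than each of the 4. Another is asb-2 (9.72, ranks 573 and 299 in replicates 1 and 2).

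GAGAGA did not differ detectably between X and autosomal peaks. It was in 351 X peaks (25.3%, 23.1 to 27.7%) and in 27.3% of autosomal ones (odds ratio 0.906, 0.789 to 1.04, exact test, adjusted p = 0.221), where 9.5% of X windows and 10.1% of autosomal windows held it. On X it was in 51% of the 100 strongest peaks and in 17.8% of those from rank 701 on. Of the 61 X peaks with AGACGCAG, 27 (44.3%) had GAGAGA as well, and 1 had GCGCAGGG.

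**Figure D4:**
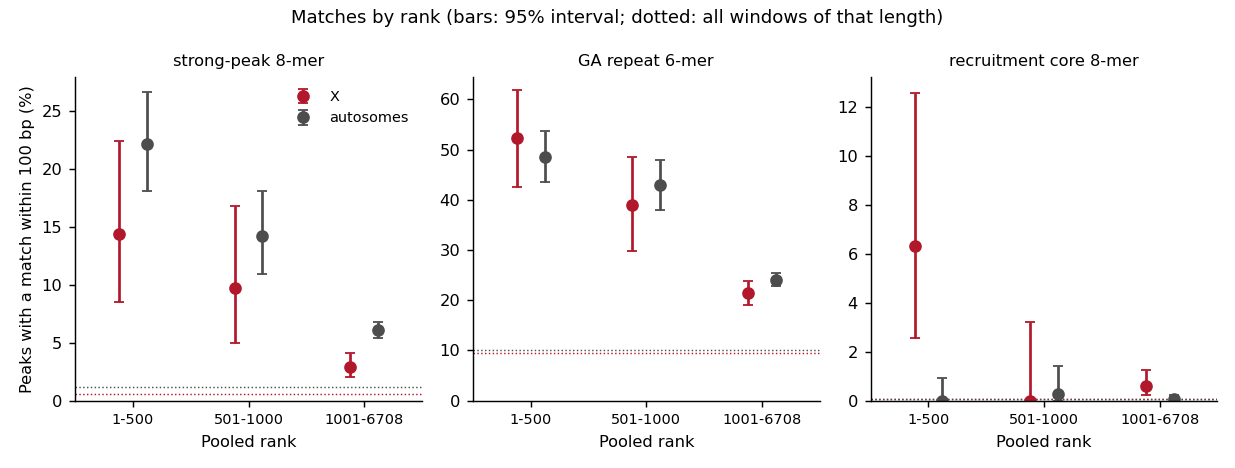
The share of peaks with a match within 100 bp of the summit (%, bars are exact 95% intervals) is plotted for 3 classes of pooled rank on X and on autosomes, with dotted lines for all 201 bp windows. The panels are AGACGCAG (strong-peak 8-mer), GAGAGA (GA repeat 6-mer) and GCGCAGGG (recruitment core 8-mer): the first is lower on X in every class, at 14.4% against 22.1% in the strongest, with intervals that overlap in the first 2 classes, the second overlaps, and the third reaches 6.31% in the strongest X class against 0 of 389 autosomal peaks.

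Most X peaks stood alone, and a minority formed groups. Chaining summits no more than 2000 bp apart gave 1043 groups, of which 816 were single peaks and 22 held 4 or more peaks, 120 peaks in all. The share of X peaks with another summit within 1000 bp was 24%, against 25.4% on autosomes (odds ratio 0.929, 0.807 to 1.07, Fisher's exact test, adjusted p = 0.386), so grouping as such was not detectably different on X. Groups were chosen by their size, which the same list gives, and are described with no test. Neighbouring summits can share the same replicate summit, so support is counted per pooled peak.

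The largest group had 13 peaks over 7981 bp around mdl-1, which encodes a MAD-like bHLH partner of MXL-1. It held 4 of the 100 strongest X peaks, with signals of 15.5, 14.5, 12.4 and 11.9. These were 4466 bp upstream of R03E9.2, 1747 bp downstream of the mdl-1 start, and 2817 bp and 1124 bp upstream of it. Of the 13, 5 were in both replicates, 7 in replicate 2 only and 1 in neither. The abts-4 intron peak with signal 24.5 lay beyond this group, 7994 bp from the mdl-1 start.

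lin-14 was the X gene with the most summits inside it, 15 over its 20312 bp. Of these, 2 were in both replicate lists and several were in neither. LIN-14 is a nuclear protein that specifies early larval fates and is turned off by the microRNA lin-4. A group of 12 peaks over 10174 bp spanned the upstream end and the first part of the gene, and another 4 lay farther in. The strongest was intronic with a signal of 14.1, rank 123 in replicate 2 and no summit in replicate 1. The next, 238 bp away, had 12.2 and ranks 878 and 409. The third strongest, in the other group, had 10.5 and rank 1547 in replicate 2 only. ZK470.2, scd-1 and unk-1 followed with 9 summits each, of which 4, 1 and 0 were in both replicates.

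The group downstream of C30E1.4 was compact, with 6 peaks over 2009 bp and no protein-coding start among them. Its strongest peaks had signals of 24.9 and 14.6, and 4 of the 6 were in both replicates. The second of these ranked 2440 in replicate 1 and 22 in replicate 2. The ftt-2 group had 4 peaks over 1342 bp, 3 of them among the 100 strongest on X.

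**Figure D5:**
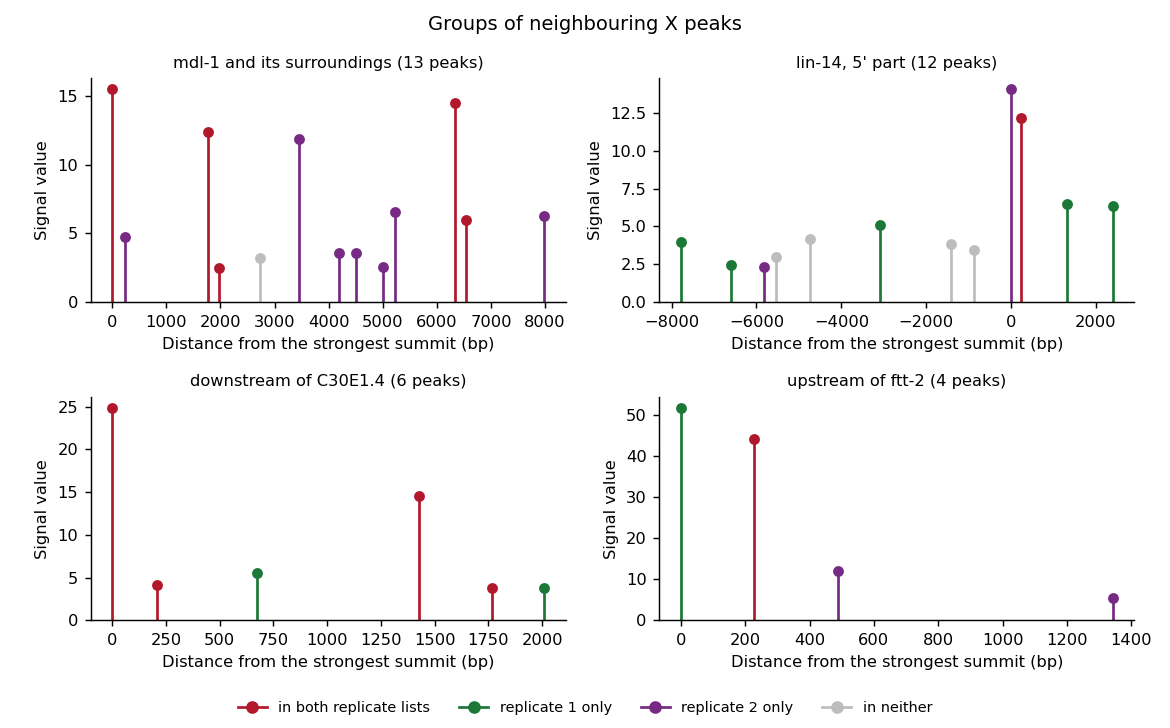
Signal values in the pooled list (vertical axis) are plotted against the distance of each summit from the strongest one of its group (bp, horizontal axis) for 4 groups of X peaks, with colours for the replicate lists that hold a summit within 200 bp. The mdl-1 group has 4 tall peaks over 6331 bp, the lin-14 group has its 2 tallest 238 bp apart, and the C30E1.4 and ftt-2 groups are within 2009 and 1342 bp.

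EOR-2, the partner of EOR-1, is encoded on X. The best peak near eor-2, 254 bp upstream, ranked 292 on X with a signal of 5.17, and it was at rank 296 with 5.82 in replicate 1 but absent from replicate 2. Of the 10 Ras, MAPK and vulval genes on X, 4 had a peak near a start or inside the gene, and 0 of the 10 had one that was in both replicates. Over all X protein-coding genes 704 of 2731 (25.8%) had such a peak, and 2.71% had one in both replicates. The other members with a peak were weak: lin-15B, a synMuv gene (3.86), lin-2, which encodes the scaffold CASK (3.15), and gap-2, a GTPase-activating protein of Ras (2.78), in pooled signal.

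Of the 6 X genes of dosage compensation and sex determination, 3 (50%) had a peak and 1 had one in both replicates, beside 25.8% and 2.71% of all X protein-coding genes. Of the 23 symbols in that list, 22 were matched in the annotation. sdc-1, a zinc finger gene of both processes, had one 125 bp upstream with a signal of 7.67, X rank 130 and ranks 717 and 1116 in replicates 1 and 2. fox-1, an RNA-binding X signal element, had its best at 4 with rank 2147 in replicate 1 only, and sex-1, a nuclear receptor that is also an X signal element, had 2.51 and neither replicate. xol-1, sdc-2 and ceh-39 had none in the pooled list.

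The 4 protein-coding genes of the heterochronic list on X all had a peak, where 25.8% of all X protein-coding genes had one. After lin-14 these were daf-12, the nuclear receptor for dafachronic acids (signal 7.57, in an intron, rank 42 in replicate 2 and none in replicate 1), kin-20, a casein kinase 1 gene (6.15, rank 266 in replicate 1 only) and hbl-1, the worm hunchback (3.39, rank 739 in replicate 2 only). A weaker hbl-1 peak in the 3′ UTR (3.1) was in both replicates, at ranks 1807 and 2431. Counting only peaks near a start gave 3 of the 4 genes, beside 19.8% of all X protein-coding genes. Longer genes have more room for a summit inside, and the lists were not matched for gene length. Of the 13 symbols in the list, 11 were matched by name in the annotation. let-7, the microRNA that times the passage to the adult and one not matched by name, is on X too and was located through RefSeq after the values were seen (WBGene00002285, chrX:14743590-14745321). It had a pair of summits inside the gene. The stronger (signal 6.26, X rank 207) had a match to AGACGCAG and was at rank 2386 in replicate 1 only, and the weaker (2.32) was in neither.

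Of 23 nuclear hormone receptor genes named nhr- on X, 10 (43.5%) had a peak. The strongest were in an intron of nhr-27 (10.7, ranks 207 and 1673 in replicates 1 and 2), in an intron of nhr-17 (7.93, rank 175 in replicate 2 only) and 469 bp upstream of nhr-1 (7.74, rank 134 in replicate 1 only). In contrast, 1 of 18 ceh- homeobox genes (ceh-60, 5.18, in neither replicate) and 1 of 27 collagen genes named col- (col-185, 4.25, in neither) had one. The shares lie on both sides of the 25.8% of all X genes, were not matched for gene length and were not tested.

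Of 21 axon guidance and neuronal genes on X, 7 (33.3%) had a peak, led by the innexin gene unc-9 (5.67, rank 1707 in replicate 1 only), the FGF gene egl-17 (5.54, rank 1338 in replicate 2 only) and the calcium channel gene unc-2 (3.37, in neither). Peptide genes named flp-, nlp- or ins- had one in 4 of 34, with nlp-76 at 5.44 (rank 228 in replicate 2 only), flp-18 at 3.8 (rank 2277 in replicate 1 only) and nlp-14 at 2.78 (in neither). Both ribosomal protein genes on X had one: rpl-11.2 at 12.2 (367 bp upstream, rank 97 in replicate 1 only) and rpl-25.1 at 2.06. bar-1, a beta-catenin gene and the only X gene of the Wnt and Hox list, had none. The annotation gives a mir- name to only 7 genes, so the 2 on X, with no peak, say little about microRNAs. Of the 74 genes annotated as miRNA on X, 5 (6.76%) had a summit inside or within 200 bp, let-7 among them. The 25.8% of X protein-coding genes rests on another distance rule, and no share over all X genes was taken by this one. The 6.76% therefore has no base rate beside it and is a count only.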

How the data were processed

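ChIP-seq peak lists from 2 biological replicates (1 group, from the labels) were used. The authors deposited narrowPeak lists with a signal value per peak, the peak caller's own, and its normalization, the aligner, the caller with its version and the threshold of the IDR step are not stated in any source used here. Per the deposited file lists, replicate lists were called against control data (not analysed here), the pooled list on both replicates' reads, and the optimal list by IDR. All X peaks of the pooled list were 404 bp wide.

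Summits were placed on Ensembl 115 genes of WBcel235 (ce11), protein-coding genes only, with UTRs and coding exons before introns where transcripts overlap. Coordinates are 1-based. X and autosomal shares were tested with Fisher's exact test, two-sided (SciPy 1.17.1, Python 3.11.15) with conditional odds ratios, adjusted by Benjamini-Hochberg over 13 comparisons, of which 2 (5′ UTR and tRNA genes) were added after the data were seen. Where a share of peaks is 0, the share equal to 3 counts stands beside it. Alternatives changed the peak list, the distances and the gene set. The functions were tested on simulated data. Named genes are those assigned to the 20 strongest and to the thresholded X peaks, up to 3 per gene list, and eor-2. Other genes locate peaks with a motif or large groups, or complete a list of 4, and were chosen after their values were seen. The members, the lists and the motifs were chosen with earlier results of these data known, so no result here is independent of those.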

Additional observations from a re-analysis of the deposited data

How the results depend on the processing

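Each comparison of X with autosomal peaks was repeated with either replicate's own list, with 1 peak per site (summits chained within 400 bp, 1289 sites on X), with the 1000 strongest pooled peaks, with only the pooled peaks found in both replicate lists, and with other distances. Of 81 alternatives, 51 kept the direction and the side of the adjusted threshold. Distal peaks and GCGCAGGG did so under every alternative tried for them, with GCGCAGGG between 6.32 (peaks of both replicates) and 24.9. The former assumes 3 autosomal counts in place of 0, and the interval of the counts as found began at 3.45. The latter, from the 1000 strongest, rests on 1 autosomal peak and has an interval of 3.17 to 1128. In 15 alternatives the odds ratio of a comparison that had not passed in the pooled list crossed 1, still without passing. The odds ratio for being among the strongest went from 1.11 to 0.96 for the 100 strongest (0.978 to 1.13 in single replicate lists). Introns went from 0.951 to 1.05 in the 1000 strongest and 1.01 in the peaks of both replicates (1.03 to 1.04 in single replicate lists). With all annotated genes the odds ratio was 1.07, but that setting also counted as intronic any intergenic summit inside a gene that is not protein-coding. Replicate support went from 1.05 to 0.891 in the 1000 strongest and 0.964 at 400 bp (0.886 to 0.953 in single lists). Neighbours went from 0.929 to 1.03 at 500 bp (1.15 to 1.19 in single lists), and GAGAGA from 0.906 to 1.03 in the peaks of both replicates. The intergenic odds ratio fell to 1.14 in the 1000 strongest and to 0.984, the opposite direction, in the peaks of both replicates, and it was 1.22 and 1.41 in the lists of replicates 2 and 1 alone. In the 1000 strongest and in the peaks of both replicates, the odds ratios no longer past the threshold were 0.802 and 0.601 for coding exons, 0.76 and 0.673 for promoters and 0.618 and 0.679 for AGACGCAG. Those sets hold fewer X peaks, 224 and 112. GAGAGA passed the threshold only within 200 bp of the summit, with an odds ratio of 0.869. Of the comparisons added later, the lower 5′ UTR share on X (2.6% against 4.04%, odds ratio 0.634, Fisher's exact test, adjusted p = 0.0177) was lost in 3 alternatives and turned to 1.15 in the peaks of both replicates. The cause was not tested. Read depth is unknown, so the precision rests on the number of peaks alone.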

Other observations

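Many X peaks lay at tRNA genes, a comparison added after the data were seen. A tRNA gene within 200 bp of the summit was found for 68 X peaks (4.91%, 3.83 to 6.18%) and 67 autosomal peaks (1.26%, 0.977 to 1.60%), an odds ratio of 4.05 (2.83 to 5.79, Fisher's exact test, adjusted p = 1.18e-13). It was 2.89 and 3.54 in the lists of replicates 1 and 2, and 2.97 in the peaks of both replicates, where it no longer passed (7 X and 9 autosomal peaks). The annotation places 276 of 612 tRNA genes on X. Counted by gene, 74 of these 276 (26.8%) and 73 of the 336 autosomal ones (21.7%) had a summit within 200 bp, and this difference was not tested. Among single autosomes this share ran from 16.7% on V to 25% on III and 27.3% on I, so X was not the highest.

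The median GC content of the bases around the summit was 40.8% on X and 40.3% on autosomes. Among the 500 strongest pooled peaks it was 46.3% on X and 45.3% on autosomes. Its part in the shares of the GC-rich motifs was not tested.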
